A study of Danio rerio with 2 samples.

Results

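Glycolysis and glycogen genes were followed through zebrafish neutrophil maturation and across the other cells of the kidney marrow. Of 37 listed genes of glucose breakdown and glycogen turnover, 31 had at least 20 UMIs (captured transcript molecules) over both libraries, among 13025 of 25109 features that reached that number. The genes cover 18 steps or carriers, and at most steps the list holds several genes. These are called duplicates here whatever their origin, and the first question was which of them was used. Of the 6 genes below the limit, pfklb had 17 UMIs, tpi1a 15 and pygma 2, while gpib, pkmb and pygl had 0. The lowest members above it were slc2a1b with 62 UMIs and pfkla with 69.

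The data are droplet-based scRNA-seq of kidney marrow from 2 adult male fish, 6 months old, that carried both Tg(lysC:CFPNTR) and Tg(BACmmp9:Citrine-CAAX). The lysC transgene labels neutrophils and the mmp9 transgene labels the more mature ones, and no wild-type fish was included. Each marrow was split into 4 portions, and each portion was labelled with its own lipid-anchored barcode (2 µM) before the sort. The LysC+ portions sorted as Mmp9 NO, INT and HI went together into one library (the sorted library). Unsorted live whole kidney marrow (WKM) went into the other. The label of the second library also calls its cells PBMCs. The paper assigned cells to their portions from the lipid-anchored barcodes, but the counts used here hold no such assignment. There was thus 1 library per condition, the cells could not be traced to a fish here, and no test between groups of cells was possible. All intervals are 95% intervals for counting error only.

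Glycolysis turns glucose into pyruvate with a net yield of ATP, and neutrophils, which hold few mitochondria, are known to rely on it. Hexokinase and phosphofructokinase are the regulated entry steps, glyceraldehyde-3-phosphate dehydrogenase (GAPDH) is the oxidative step, and lactate dehydrogenase with the lactate carrier removes the pyruvate that is not oxidised. Neutrophils also store glycogen, which glycogen synthase builds and glycogen phosphorylase breaks down when glucose is short.

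After filtering, the sorted library held 15102 cells with 49531298 UMIs (median 2236 per cell) and the WKM library 8191 cells with 40709152 UMIs (median 3357). The libraries shared 41 cell barcodes. Levels are given as CPM, the UMIs of a gene in a group of cells scaled to a common total of 1e6 UMIs. These 3′ counts give 1 UMI per molecule and are not scaled by length, so duplicates can be set side by side, although a gene whose 3′ end is poorly annotated would be counted low. Cells were grouped by the share of their UMIs that came from lyz, the neutrophil lysozyme. Cells over 10% stand at the high end and cells under 2% at the low end, with 518 sorted cells lying within 10% of the 2% limit. WKM cells were also gated on markers, which gave 5288 cells in the neutrophil gate, 451 in the HSPC gate, 464 in the monocyte or macrophage gate, 638 in the erythroid gate, 107 in the B cell gate and 67 in the T or NK cell gate. A further 438 cells (5.35%) met several gates and 724 (8.84%) met none, and these were left out of the comparison of classes. The HSPC gate lacked mycn entirely, and csf1ra (5.2 CPM), marco (19.9 CPM) and mpeg1.1 (14.9 CPM) were low in the monocyte or macrophage gate, which carried c1qb at 916 CPM and mfap4 at 198 CPM.

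The members made up 0.944% of all UMIs in the sorted library and 0.570% in WKM. GAPDH transcripts led in both. The gapdhs gene (ENSDARG00000039914) alone took 27.7% of the members' UMIs in the sorted library and 25.3% in WKM, and the next were the enolase eno3 with 11.4% and 13.3% and the aldolase aldoaa with 9.76% and 14.0%, in that order in the sorted library and in the reverse order in WKM. At the other end, the glycogen branching enzyme gbe1b stayed at 1.35 CPM in the neutrophil gate, and the glucose carrier slc2a1b reached no more than 1.43 CPM in any of the 6 gates above, with 6 UMIs in the HSPC gate.

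**Figure D1:**
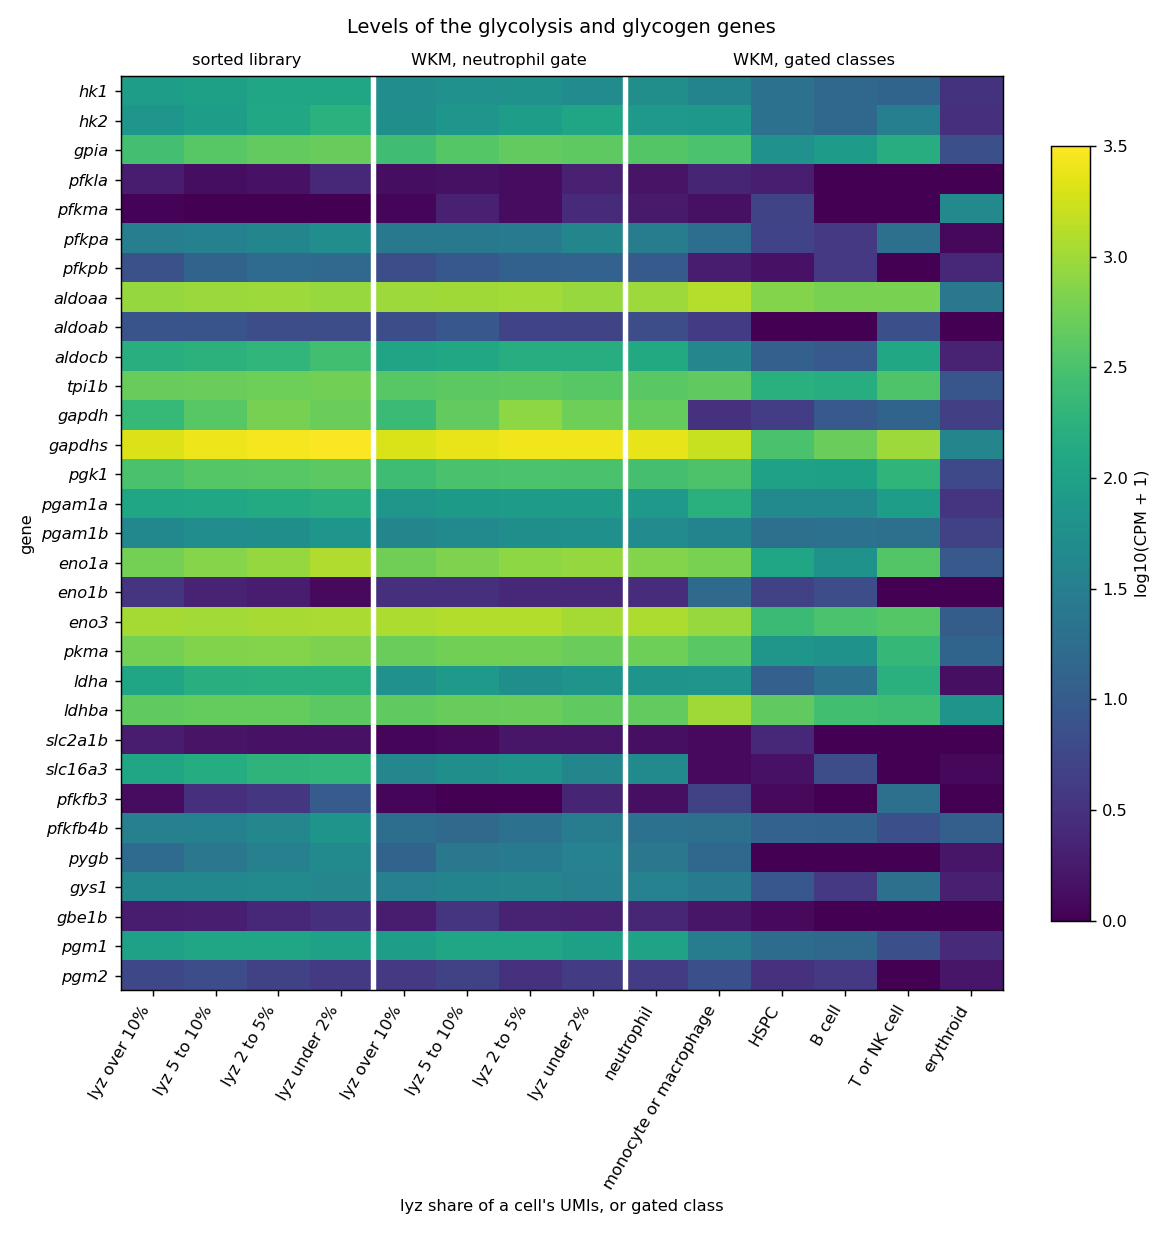
Level of each of the 31 members (rows) as log10(CPM + 1), in 4 groups of the sorted library and of the WKM neutrophil gate by lyz share, and in 6 gated classes of WKM. The gapdhs row is the brightest in the neutrophil columns, and gapdh and slc16a3 are dark in every gate but that of neutrophils.

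Shares of a step are taken over its listed genes, and paralogs outside the list are not in them. At 3 steps a single gene of the listed pair was counted in the sorted library. All 19767 UMIs of glucose-6-phosphate isomerase came from gpia, all 25688 of triosephosphate isomerase from tpi1b and all 32158 of pyruvate kinase from pkma. Glycogen phosphorylase was likewise pygb alone, with 1411 UMIs, a gene named after the brain form of mammals, while the liver-type gene pygl had none. Other steps leaned to one duplicate without excluding the other. In the WKM neutrophil gate aldoaa made up 87.6% (interval 87.1 to 88.1) of aldolase UMIs and ldhba 87.9% (87.3 to 88.6) of lactate dehydrogenase UMIs. There pgm1 made up 97.1% (96.2 to 97.8) of phosphoglucomutase UMIs. Of the listed pair pfkfb3 and pfkfb4b, pfkfb4b gave 98.2% (96.3 to 99.3) of the UMIs. Enzymes of this family make or remove fructose-2,6-bisphosphate, the activator of phosphofructokinase. The enolases were shared, with eno3 at 62.3% (61.7 to 62.8) and eno1a at 37.7%, and so were the hexokinases, with hk2 at 59.6% (57.6 to 61.5), and the phosphoglycerate mutases, with pgam1a at 62.1% and pgam1b at 37.9%.

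Phosphofructokinase changed its gene with the cell class. In the neutrophil gate pfkpa gave 73.7% (70.4 to 76.9) of 727 UMIs and pfkpb 22.6%, and pfkma gave 2.06%. In the erythroid gate pfkma (ENSDARG00000014179), named after the muscle form, gave 215 of 223 UMIs, or 96.4% (93.1 to 98.4). Its level there was 43.9 CPM (38.2 to 50.2), against 4.28 in the HSPC gate, 0.807 in the neutrophil gate and 0.433 in the monocyte or macrophage gate. In the whole sorted library 1 UMI of pfkma was counted. With every cell thinned to 1000 UMIs, 4.86% of erythroid-gated cells (23.8% unthinned) and 0.0757% of neutrophil-gated cells had a pfkma UMI.

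**Figure D2:**
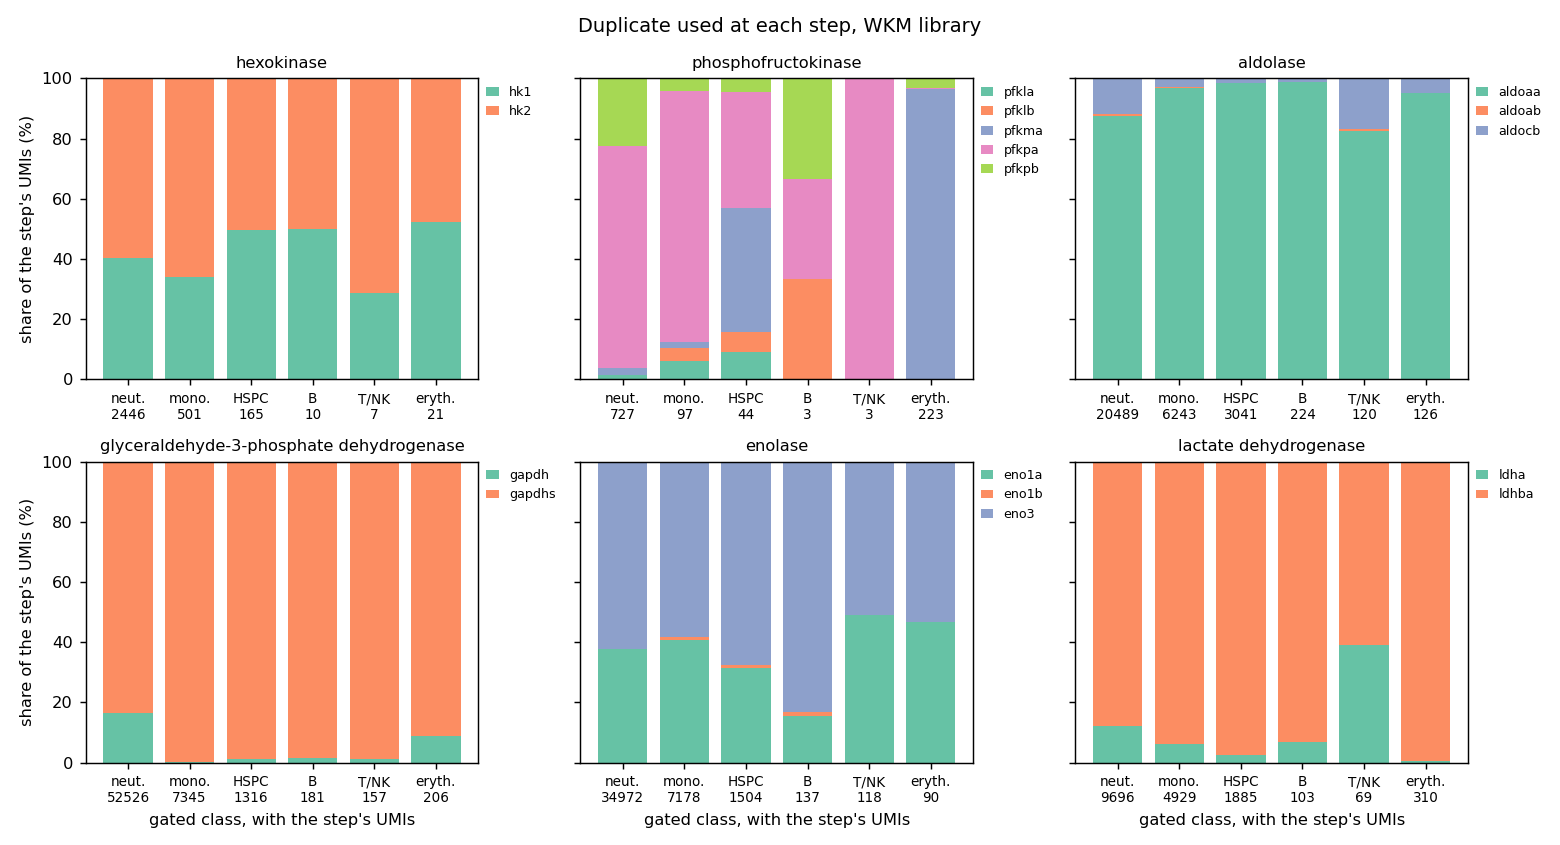
Share of each duplicate (stacked bars) for 6 steps in 6 gated classes of WKM, in % of the UMIs of the listed genes of that step. The number of these UMIs stands under each bar. The phosphofructokinase bar is almost all pfkma in erythroid-gated cells, and gapdh is visible mainly in the neutrophil bar. Bars over few UMIs, such as the 3 phosphofructokinase UMIs of the B cell gate, are poorly determined.

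The GAPDH gene gapdh was counted mainly in neutrophils, and gapdhs also in the other classes, with its lowest level in the erythroid gate. In the WKM neutrophil gate gapdh (ENSDARG00000043457) stood at 465 CPM (455 to 475), from 8637 UMIs. The other gates held 3.33 CPM (HSPC, 14 UMIs), 2.16 (monocyte or macrophage, 10 UMIs), 3.68 (erythroid, 18 UMIs), 8.48 (B cell, 3 UMIs) and 12.4 (T or NK cell, 2 UMIs). As a share of the level in the neutrophil gate, gapdh lay at 0.716% in the HSPC, 0.466% in the monocyte or macrophage, 0.791% in the erythroid, 1.82% in the B cell and 2.68% in the T or NK cell gate. Transcripts of lyz, which such cells should lack and which free neutrophil RNA can leave in droplets, lay at 0.402%, 0.280%, 0.352%, 0.640% and 2.83% in the same gates. The gapdh shares were thus small and above those of lyz in all of these gates but the last, and whether these few UMIs came from the cells was not tested. Shares of the neutrophil transcripts npsn, lect2l, mpx and cfl1l also lay below that of gapdh, except in the T or NK cell gate. There they were 8.92%, 3.41%, 2.26% and 1.84%. The pattern of gapdhs differed, because this gene reached 1588 CPM (1552 to 1625) in the monocyte or macrophage gate and 964 in the T or NK cell gate. It stood at 503 CPM in the B cell gate and 309.8 in the HSPC gate, against 2363 CPM in the neutrophil gate. In the erythroid gate gapdhs was low as well, at 38.4 CPM, or 1.63% of its level in the neutrophil gate. In mammals the gene of that name is known from sperm. After thinning to 1000 UMIs, 38.1% (36.8 to 39.4) of neutrophil-gated cells had a gapdh UMI and 0.862% (0.236 to 2.19) of monocyte- or macrophage-gated cells had one, and the shares for gapdhs were 90.6% and 72.6%. Outside these gates, 8 cells that met the kidney tubule gate held 16 UMIs of gapdh, or 747 CPM (427 to 1213), and cells without a gate stood at 41.6 CPM.

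The lactate carrier slc16a3 (ENSDARG00000045051), which is induced by low oxygen in mammals, followed gapdh. It stood at 46.8 CPM (43.8 to 50.1) in the neutrophil gate. The other 5 gates held at most 2 UMIs each, and none at all was counted in the T or NK cell gate. In the small B cell gate 2 UMIs amount to 5.65 CPM, or 12.1% of the level in the neutrophil gate, where lyz lay at 0.640%. The absence from the T or NK cell gate means at least 2.51-fold lower at a floor of 3 UMIs. The monocyte or macrophage gate had 1 UMI (0.216 CPM), a ratio to the neutrophil gate of -7.76 on the log2 scale (-13.06 to -5.28).

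Compared with the neutrophil gate of the same library, members were mostly lower in progenitors, lymphoid and red cells and close to equal in the monocyte or macrophage gate. A feature was called at a 2-fold difference or more, given at least 100 UMIs in the groups compared, and the classes all share the neutrophil gate as reference. In the HSPC gate 20 of 24 members were called lower and 0 higher, where 30.1% of all 7468 features were called lower and 14.9% higher. The median log2 ratio was -2.60 over the members and -0.28 over all features. Steps differed widely, since aldoaa (713 against 966 CPM, log2 -0.44) and ldhba (438 against 459 CPM, log2 -0.07) were nearly as high in progenitors, whereas pkma stood at 69.2 against 529 CPM (log2 -2.93), gpia at 57.1 against 367 CPM (log2 -2.68) and pygb at 0 UMIs against 23.4 CPM, which is at least 32.8-fold lower at a floor of 3 UMIs in the HSPC gate. HSPC-gated cells had a median of 8286 UMIs and neutrophil-gated cells 2470.

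In the erythroid gate 23 of 25 members were called lower and 1 higher (pfkma, log2 5.77, interval 5.01 to 6.63), where 63.8% of 7261 features were called lower and 6% higher. Their summed level was 252 CPM against 8459 in the neutrophil gate. Hemoglobin stood at 580137 CPM in that gate, which was set on its share. Without the UMIs of lyz and hemoglobin the counts of members called were again 23 and 1, where 36.0% of features were called lower and 15.6% higher. Among the 157 erythroid-gated cells without a cell cycle UMI the ratio of pfkma was 6.09, with fewer than the 100 UMIs needed for a call. The regulatory enzyme pfkfb4b was the member least changed, at 10.6 against 20.1 CPM (log2 -0.92), and it moved to 0.18 without the UMIs of lyz and hemoglobin.

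Members were called lower for 19 of 23 and higher for 0 in the B cell gate, where 22.5% of all features were called lower and 17.3% higher. This gate rests on 353906 UMIs and 107 cells, and calls use the ratio alone. Some of them rest on very few B cell UMIs, with 0 for pygb and 1 each for pfkpa, pfkpb and gys1. The interval of pfkpb held 0 (log2 -1.64, -6.96 to 0.85). In the T or NK cell gate, which rests on 160781 UMIs and 67 cells, 11 of 23 were called lower and 1 higher, where 18.5% and 15.2% of features were. Among those called lower, the intervals of pgam1b (-3.64 to 0.19) and pfkfb4b (-7.00 to 0.79) held 0. The member called higher was ldha, the lactate dehydrogenase gene whose mammalian product favours lactate formation, at 168 CPM (111 to 244, 27 UMIs) against 63.0 in the neutrophil gate (log2 1.41, 0.81 to 1.96). It made up 39.1% of lactate dehydrogenase UMIs there and 12.1% in the neutrophil gate. The T or NK cell gate also held lyz at 2034 CPM, the most among the other 5 gates, and the part of free or neutrophil RNA in its values was not tested.

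The monocyte or macrophage gate came closest to neutrophils. The members summed to 7484 CPM against 8459 in the neutrophil gate, a log2 ratio of -0.18 (-0.19 to -0.16). Of 25 members, 3 were called higher and 5 lower, where 12.9% of 7559 features were called higher and 15.8% lower. The genes called higher were the enolase eno1b (15.4 against 1.78 CPM, log2 3.11), the lactate dehydrogenase ldhba (999.99 against 459 CPM, log2 1.12) and the phosphoglycerate mutase pgam1a (165 against 78.4 CPM, log2 1.07). Those called lower were slc16a3, gapdh (log2 -7.75), the phosphofructokinase pfkpb (log2 -3.35), the phosphoglucomutase pgm1 (29.7 against 102 CPM, log2 -1.78) and the aldolase aldocb (log2 -1.71). The hexokinase hk2 stood at 71.4 against 78.4 CPM and tpi1b at 439 against 403 CPM. Without the UMIs of lyz and hemoglobin, ldhba (0.98) and pgam1a (0.93) fell short of 2-fold and eno1b (2.97) remained past it. Without cells holding a cell cycle UMI, ldhba (0.998) and pgam1a (0.97) fell short as well, and eno1b (3.19) had fewer than 100 UMIs. Over the 6 classes, and among the 26 members with at least 100 UMIs in them, 17 were highest in the neutrophil gate, 6 in the monocyte or macrophage gate, 2 in the T or NK cell gate and 1 in the erythroid gate. The same count was not made over all features, so these numbers have no background to be read against. In the T or NK cell gate aldoab was highest on 1 UMI (6.22 CPM against 5.65 in the neutrophil gate). The interval of the highest class was compared only with that of the class second by level. It lay clear for 12, 5, 1 and 1 members in the neutrophil, monocyte or macrophage, T or NK cell and erythroid gates. Classes further down can have wider intervals. In the T or NK cell gate 3 UMIs, the count of both pgam1b and gys1, have an upper limit of 54.5 CPM. The lower limits of these genes in the neutrophil gate were 44.7 and 31.9 CPM.

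Sorted cells were not gated on markers, and the part of other cell types in their groups was not tested. The markers of the WKM neutrophil gate include lyz itself, and the part of this in its groups by lyz share was not tested. Among sorted cells and within the WKM neutrophil gate, the members' summed level was higher at low lyz share. In the sorted library it was 7862 CPM in cells over 10%, 9217 at 5 to 10%, 10281 at 2 to 5% and 10808 under 2%. The WKM neutrophil gate gave 7357, 8656, 9588 and 8921 CPM in the same order, so that its highest value lay at 2 to 5%. The median log2 ratio of all features between cells under 2% and over 10% was 0.46 in the sorted library and 0.44 in the WKM neutrophil gate, and 0.27 and 0.29 without the UMIs of lyz and hemoglobin. The members have to be read against that shift.

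Measured so, the members' median lay close to that of all features in the sorted library and below it in the WKM neutrophil gate. Their median log2 ratio was 0.53 over 26 members in the sorted library, and 6 were called higher and 0 lower, while 27.2% of all features were called higher and 10.1% lower. In the WKM neutrophil gate the median was 0.24 over 22 members with 3 called higher and 0 lower, against 20.4% and 5.32% of all features. The share of members called higher was 23.1% and 13.6%. With 26 and 22 members, its distance from the share of all features rests on few genes and was not tested. Scaled by median of ratios, which sets the median feature to 0, there were 2 higher and 1 lower in the sorted library and 1 higher in WKM. Of all features, 14.0% were then called higher and 16.7% lower in the sorted library, and 9.34% higher in WKM.

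**Figure D3:**
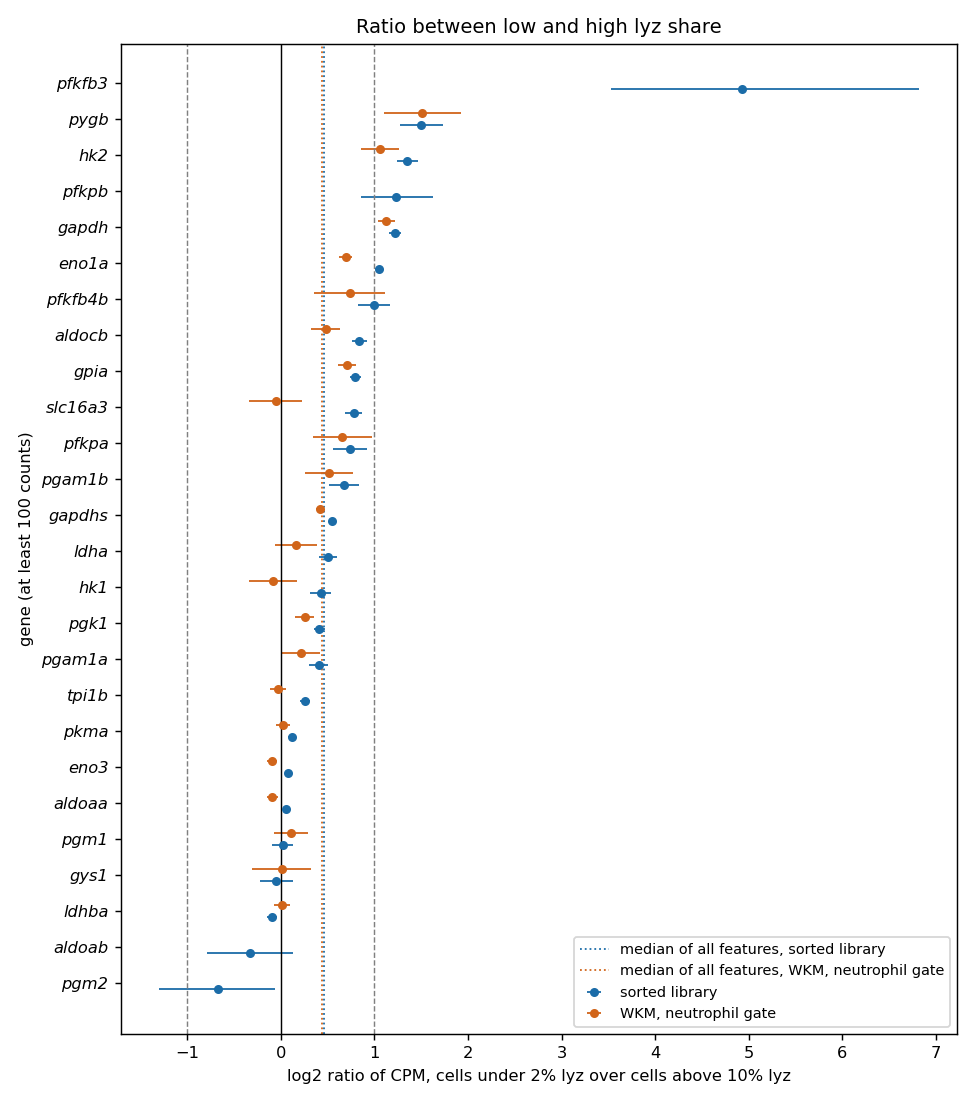
Log2 ratio of CPM between cells under 2% and over 10% lyz for members with at least 100 UMIs, in the sorted library and the WKM neutrophil gate. Points are ratios, bars 95% counting intervals, dashed lines the 2-fold limits and dotted lines the median of all features (0.46 and 0.44). Glycogen phosphorylase pygb, hk2 and gapdh lie beyond the 2-fold limit in both libraries.

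The genes beyond 2-fold in both libraries were hk2, gapdh and pygb. The hexokinase hk2 (ENSDARG00000101482) read 67.2, 89.6, 119.6 and 171 CPM from over 10% to under 2% lyz in the sorted library. In the WKM neutrophil gate it read 54.1, 68.1, 89.3 and 113 CPM. The level was thus ordered with lyz share in both, with log2 ratios of 1.35 (1.24 to 1.46) and 1.06 (0.86 to 1.26), and hk1, the housekeeping hexokinase, changed less (log2 0.42 and -0.08). As a result hk2 moved from 43.6% to 59.5% of hexokinase UMIs in the sorted library and from 51.7% to 70.27% in the WKM neutrophil gate.

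Glycogen phosphorylase pygb (ENSDARG00000002021) read 15.8, 23.7, 32.5 and 44.9 CPM in the sorted library and 12.1, 24.3, 27.5 and 34.4 CPM in the WKM neutrophil gate, from high to low lyz share. Its log2 ratio was 1.501 (1.27 to 1.74) and 1.503 (1.098 to 1.92). Glycogen synthase gys1, the opposing enzyme, stayed at 41.9 and 40.5 CPM at the 2 ends in the sorted library and 32.5 and 32.7 CPM in the WKM neutrophil gate. Phosphoglucomutase pgm1, which links glycogen to glycolysis, read 99.9 and 101 CPM at the ends in the sorted library. On the scale that sets the median feature to 0, hk2 (0.89 and 0.62) and gapdh (0.76 and 0.69) fell short of 2-fold and pygb remained past it (1.04 and 1.06).

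**Figure D4:**
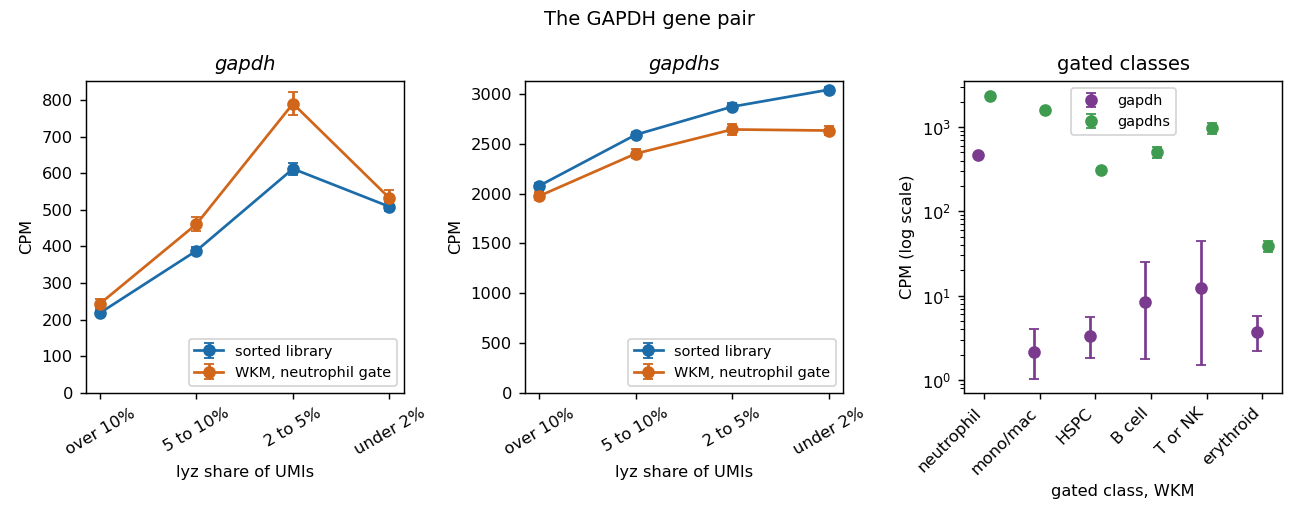
Levels in CPM of gapdh (left) and gapdhs (middle) by lyz share of UMIs in the sorted library and the WKM neutrophil gate, and of both genes in 6 gated classes of WKM on a log scale (right). Bars are 95% counting intervals. The gapdh curve has its top at 2 to 5% lyz in both libraries (612 and 791 CPM), and in the right panel gapdh lies at or below 12.4 CPM in every class but the neutrophil gate.

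The gapdh gene did not follow a steady course. In the sorted library it read 218 CPM (210.4 to 226) over 10% lyz, 388 (378 to 398) at 5 to 10%, 612 (596 to 629) at 2 to 5% and 509 (496 to 521) under 2%. The WKM neutrophil gate gave 244 (231 to 256), 461 (442 to 481), 791 (760.2 to 822) and 532 (511 to 553). Both libraries therefore placed its highest level in the 2 to 5% group, and the intervals of that group and its neighbours did not overlap. By contrast gapdhs was higher from group to group in the sorted library (2079, 2591, 2874 and 3044 CPM) and levelled off in the WKM neutrophil gate (1976, 2402, 2645 and 2634 CPM). The share of gapdh in GAPDH UMIs went from 9.5% over 17.6% to 14.3% in the sorted library and from 11.0% over 23.0% to 16.8% in WKM, between the over 10%, 2 to 5% and under 2% groups.

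Further genes were called in the sorted library but not in the WKM neutrophil gate, where pfkpb and pfkfb3 had too few UMIs for a call. Enolase eno1a read 580 CPM over 10% lyz and 1202 under 2% (log2 1.05, 1.01 to 1.09), and 549 and 887 CPM in the WKM neutrophil gate (log2 0.69, 0.63 to 0.76). The muscle-named enolase eno3 kept its level, at 1064 and 1125 CPM in the sorted library, so that eno1a went from 35.3% to 51.7% of enolase UMIs. The phosphofructokinase pfkpb read 6.31 and 14.8 CPM (log2 1.23, 0.85 to 1.62), and 5.90 and 11.8 CPM in the WKM neutrophil gate (log2 0.99, 0.36 to 1.64, from 36 and 55 UMIs). The largest ratio belonged to pfkfb3, which in mammals makes fructose-2,6-bisphosphate and so drives phosphofructokinase, with 4 UMIs (0.30 CPM) over 10% and 114 UMIs (9.13 CPM) under 2% (log2 4.93, 3.53 to 6.83). It was almost absent from the WKM neutrophil gate, with 7 UMIs in all 5288 cells, of which 1 lay over 10% and 6 under 2% (log2 2.97, -0.08 to 8.49). The related pfkfb4b read 32.5 and 64.6 CPM in the sorted library, just short of 2-fold (log2 0.99).

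Several abundant members differed little between the ends. Aldolase aldoaa had a log2 ratio of 0.06 in the sorted library and -0.09 in the WKM neutrophil gate, eno3 0.08 and -0.10, pkma 0.12 and 0.02, and ldhba -0.09 and 0.01. Phosphoglycerate kinase pgk1, a step that yields ATP, read 311 and 414 CPM in the sorted library (log2 0.41) and 257 and 307 CPM in the WKM neutrophil gate (log2 0.26). The lactate carrier slc16a3 differed between the libraries, with 116 and 199.6 CPM in the sorted library (log2 0.78, 0.69 to 0.87) and 40.3 and 38.9 CPM in the WKM neutrophil gate (log2 -0.05, -0.34 to 0.23). The only tested member with an interval wholly below 0 in the sorted library besides ldhba was phosphoglucomutase pgm2, at 4.73 and 2.96 CPM (log2 -0.68, -1.30 to -0.07). The low aldolase aldoab read 7.14 and 5.69 CPM there (log2 -0.33, -0.79 to 0.13), and the phosphoglycerate mutase pgam1b 42.1 and 67.3 CPM (log2 0.68, 0.52 to 0.83), with 0.51 in the WKM neutrophil gate. The enolase eno1b had too few UMIs for a call. It had 31 UMIs over 10% lyz and 3 under 2% in the sorted library (log2 -3.28, -5.63 to -1.60). In the WKM neutrophil gate it had 12 and 7 UMIs (log2 -0.40, -1.98 to 1.07).

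Several measures moved along with lyz share. In the sorted library the median UMIs per cell went from 7072 in cells over 10% to 1667 under 2%, cell cycle transcripts from 628 to 93.1 CPM and hsp70 transcripts from 299 to 1035 CPM. The hsp70 level in the WKM neutrophil gate stayed between 6.40 and 18.4 CPM. Immediate early genes, which are induced within minutes of cell stress, were higher at low lyz share in both, at 2101 and 4979 CPM in the sorted library (5 of 14 called higher, 1 lower) and 751 and 2595 CPM in the WKM neutrophil gate (9 of 12 called higher, 0 lower). Their part in the members' ratios was not tested. Without cells that held an hsp70 UMI, the sorted log2 ratio was 1.08 for hk2, 1.29 for gapdh and 1.27 for pygb, but 0.58 for pfkpb and 0.08 for ldha. Hemoglobin UMIs made up 14051 CPM of the WKM neutrophil gate over 10% lyz and 52682 CPM under 2%. Without the UMIs of lyz and hemoglobin, 1 of 22 members was called higher there and 0 lower, where 15.4% and 6.14% of features were. The median log2 ratio was then 0.09 over the members and 0.29 over all features. The part of hemoglobin alone was not tested.

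Cells were also grouped by UMIs of mmp9, the gene behind the sort. In the sorted library 3675 cells had 3 or more mmp9 UMIs and 7849 had none, with median depths of 2345 and 2341 UMIs. Of 26 members 4 were called higher (hk2, pfkpb, pygb and pfkfb3, all of them also called by lyz share) and 0 lower, where 4.09% of 8602 features were called higher and 2.88% lower. The median log2 ratio was 0.26 over the members and 0.04 over all features. Summed over all members the level went from 8981 CPM without mmp9 over 9714 with 1 to 2 UMIs to 10452 with 3 or more.

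Along the groups with 0, 1 to 2 and 3 or more mmp9 UMIs, hk2 read 83.4, 111 and 179.8 CPM (log2 1.11, 1.02 to 1.195 between the ends). The same groups gave 21.3, 29.1 and 47.8 CPM for pygb (log2 1.16, 0.99 to 1.34) and 8.48, 13.4 and 19.6 CPM for pfkpb (log2 1.21, 0.93 to 1.48). These 3 genes were ordered with mmp9 in all 3 sets of cells compared, but not every step was clear of counting error. The intervals of pfkpb overlapped between the upper groups of WKM and between all neighbouring groups of sorted cells under 2% lyz, and those of pygb between 0 and 1 to 2 UMIs in the latter cells. With mmp9 counted after thinning every cell to 1000 UMIs, hk2 (0.95), pygb (0.97) and pfkpb (0.72) fell short of 2-fold and pfkfb3 (1.64) did not. For ldha the levels were 121, 159 and 219.8 CPM (log2 0.86, 0.78 to 0.94). Its partner ldhba did not follow, at 451, 459 and 422 CPM, so that ldha went from 21.2% to 34.2% of lactate dehydrogenase UMIs.

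Because mmp9 and low lyz share go together, the contrast was repeated among sorted cells under 2% lyz, with 2369 and 2745 cells. Their median depths differed, at 2223 UMIs with 3 or more mmp9 UMIs and 1540 with none. The part of depth in this contrast was not tested. There 4 of 23 members were called higher and 0 lower (4.45% and 6.82% of 5706 features), namely ldha (98.0 to 241 CPM, log2 1.298, 1.14 to 1.46), pfkpb (log2 1.203), pygb (log2 1.13) and hk2 (log2 1.004, 0.85 to 1.15). The ratio of pfkfb3 was -0.02 (-0.65 to 0.62) in these cells, from 40 UMIs without mmp9 and 48 with 3 or more, too few for a call. Heat shock transcripts stood at 398 CPM without mmp9 and 3274 with 3 or more in these cells (8 of 9 genes called higher), and cell cycle transcripts at 43.8 and 149 CPM (3 of 3 called higher), and their part in the members' ratios was not tested. In the same cells gapdh was lower with mmp9, at 667 CPM (643 to 691) without, 448 with 1 to 2 and 406 (390 to 424) with 3 or more UMIs (log2 -0.71, -0.79 to -0.64), while gapdhs went from 2631 over 2956 to 3423 CPM. The members of the GAPDH pair thus moved in opposite directions, and gapdh went from 20.2% to 10.6% of their UMIs.

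**Figure D5:**
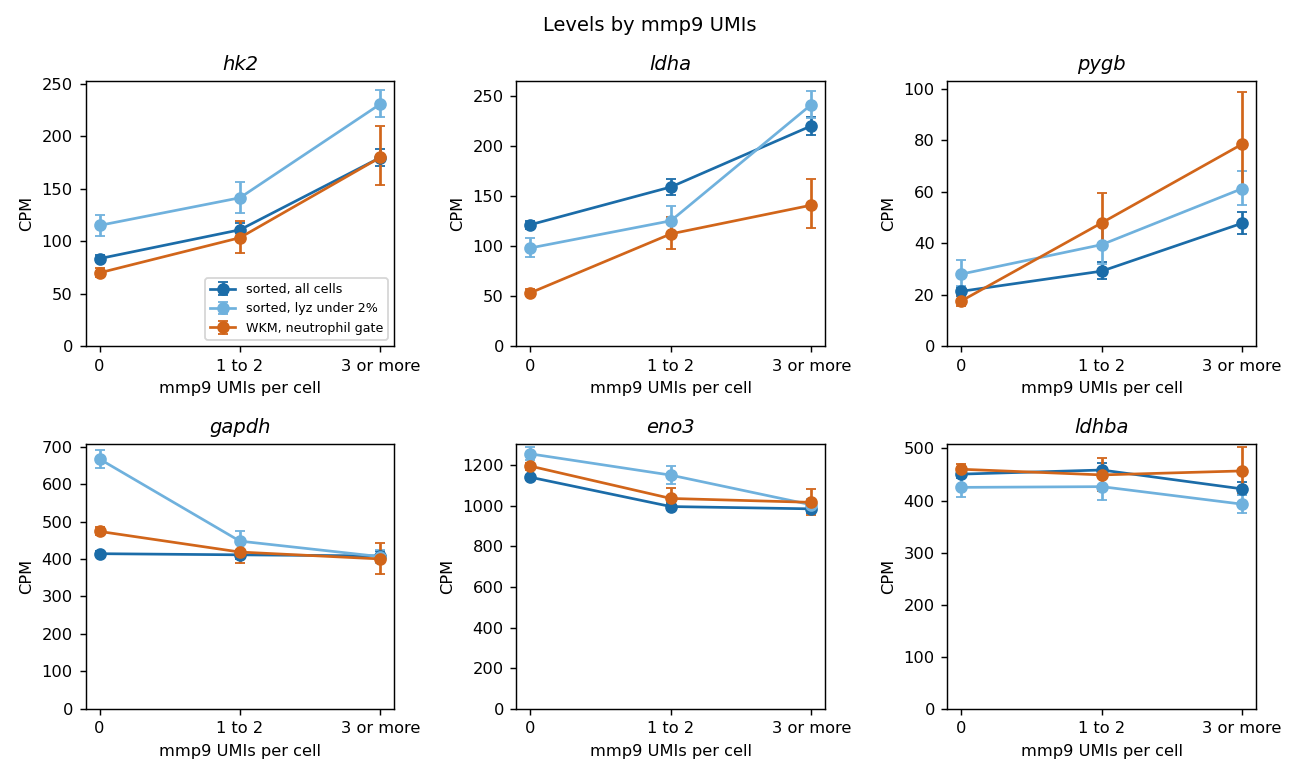
Levels in CPM of hk2, ldha, pygb, gapdh, eno3 and ldhba in cells with 0, 1 to 2, and 3 or more mmp9 UMIs, for all sorted cells, sorted cells under 2% lyz and the WKM neutrophil gate. Bars are 95% counting intervals. The top row is higher with more mmp9 in all 3 sets, and in the bottom row gapdh is lower with mmp9 in sorted cells under 2% lyz (667 to 406 CPM) and ldhba stays between 393 and 460.1 CPM.

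In the WKM neutrophil gate 316 cells had 3 or more mmp9 UMIs and 4411 had none, and mmp9 is one of the markers of that gate. Of 23 members 5 were called higher and 0 lower, where 8.21% and 7.95% of 6577 features were. They were pygb (17.6 and 78.5 CPM, log2 2.16, 1.76 to 2.54), ldha (53.2 and 141 CPM, log2 1.40, 1.12 to 1.67), hk2 (69.9 and 179.9 CPM, log2 1.36), hk1 (47.6 and 101 CPM, log2 1.09) and pfkpb (7.66 and 16.4 CPM, log2 1.09). The abundant aldoaa (log2 -0.39) and eno3 (log2 -0.23) were lower, as they were in sorted cells (-0.15 and -0.21). Transcripts of hsp70 stood at 1447 CPM in sorted cells with 3 or more mmp9 UMIs and 326 CPM in those with none, and at 32.7 and 10.55 CPM in the WKM neutrophil gate. Without cells holding an hsp70 UMI the sorted ratios were 1.01 for hk2, 1.19 for pygb, 1.09 for pfkpb and 0.79 for ldha.

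Genes around the pathway were read from lists of the same kind. Between cells under 2% and over 10% lyz in the sorted library, 3 of 4 tested glucose and lactate carriers outside the member list were called higher and 0 lower, against 27.2% of all features called higher. The glucose carrier gene slc2a3b read 43.6 and 234 CPM (log2 2.42, 2.29 to 2.55) and slc2a6 2.85 and 53.1 CPM (log2 4.22), while the member slc2a1b read 0.901 and 0.481 CPM, and bsg, the chaperone of lactate carriers, 119 and 252 CPM (log2 1.09). In WKM the ratios were 1.98 for slc2a3b, 3.19 for slc2a6 and 0.98 for bsg.

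Other glycogen genes were called higher for 4 of 9 and lower for 0 in the sorted library, against 27.2% of all features higher, with a median of 0.98. In the WKM neutrophil gate 1 of 6 was called higher, against 20.4% of features, with a median of 0.26 where all features had 0.44. Glycogenin gyg1a, the primer of glycogen synthesis, read 53.6 and 246 CPM (log2 2.197, 2.08 to 2.32), and the glycogen-targeting phosphatase subunit ppp1r3b 2.48 and 13.9 CPM (log2 2.48). The kinase gene gsk3ba, whose product inhibits glycogen synthase, had a log2 ratio of 1.24 and ppp1r3da one of 1.07. The counterpart in WKM was 1.77 for gyg1a. Of the pentose phosphate pathway, which supplies NADPH to the oxidative burst, 3 of 9 genes were called higher and 0 lower in the sorted library, near the 27.2% of all features, and the median of 0.33 lay below that of all features (0.46). Among them were the ribose-5-phosphate isomerase rpia at 17.5 and 64.9 CPM (log2 1.89) and the transaldolase taldo1 at 3.98 and 8.01 CPM (log2 1.01). Of 6 tested further paralogs of glycolytic enzymes, pfkfb4a (log2 1.51) and the bisphosphoglycerate mutase bpgm (log2 1.61) were called higher and pgm3 (log2 -1.92) and tigarb (log2 -1.28) lower. Among all features 27.2% were called higher and 10.1% lower.

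Genes of pyruvate oxidation and the TCA cycle had a lower median than all features in the sorted library, with 3 of 30 called higher where 27.2% of features were, 2 lower, and a median log2 ratio of -0.0048 where all features had 0.46. The mitochondrial dehydrogenase idh2 read 389 and 140.3 CPM (log2 -1.47, -1.55 to -1.39) and the pyruvate carrier subunit mpc1 64.0 and 132 CPM (log2 1.04), and pdk2b (log2 1.06) and ogdhb (log2 1.17) were the others called higher. In the monocyte or macrophage gate 6 of 26 genes of this list were called higher than in the neutrophil gate and 1 lower. Of all features, 12.9% were called higher there and 15.8% lower. The median log2 ratio was 0.68 for this list, while the glycolysis and glycogen members had -0.37 and all features 0.01. Factors and targets of the oxygen response outside glycolysis were called higher for 10 of 15 and lower for 0 in the sorted lyz contrast. There 27.2% of all features were called higher and 10.1% lower. The median was 1.68 for this list and 0.46 for all features. The largest by UMIs were mxi1 (14.0 and 201 CPM, log2 3.84) and hif1al (27.3 and 105 CPM, log2 1.95), followed by bnip3lb (log2 2.09) and ndrg1a (log2 1.17). In the WKM neutrophil gate 4 of 8 genes of this list were called higher and 0 lower, against 20.4% and 5.32% of features. Their median there was 0.93, where all features had 0.44. Of gluconeogenesis, 0 of 4 tested genes were called in either direction in the sorted lyz contrast.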

How the data were processed

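Both 10x Genomics 3′ scRNA-seq libraries were used. The deposited UMI counts, one matrix for each library with no scaling, came from Cell Ranger 3.1.0, run by the authors on GRCz11 extended by both transgene sequences. Seurat 4.0.2, also in the submitters' processing notes, came after these counts. The assignment of sorted cells to Mmp9 NO, INT or HI was not used here. Barcodes with at least 500 features and under 10% mitochondrial UMIs were kept, and doublets called by Scrublet in scanpy 1.11.5 (expected rate 10%) were removed, 1797 in the sorted library (10.6%) and 122 in WKM (1.47%). Counts were summed per group of cells, with Python 3.11.15, numpy 2.4.6, scipy 1.17.1 and pandas 2.3.3. CPM have exact Poisson intervals, ratios exact binomial intervals of the split of both counts, and shares exact Clopper-Pearson intervals. UMIs of 1 cell are not independent, so intervals cover counting error only. A group at 0 was set to a floor of 3 UMIs, and no ratio was given where that floor lay above the other group. On simulated counts for the sorted lyz contrast, over 7880 genes with 200 changed, 95.5% of the changed genes had their true ratio inside the 95% interval. The simulated counts were independent Poisson draws, the model behind the interval, so this value does not cover spread between cells or fish.

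Gates required 6 of 8 detected markers for neutrophils (taking precedence over the HSPC gate), 3 of 10 for HSPC, 4 of 12 for monocytes or macrophages, 3 of 8 for B cells, 2 of 9 for T or NK cells, 4 of 8 for thrombocytes, 2 of 9 for kidney tubule and a hemoglobin share of 20% for erythroid cells. These limits were set with the data in view, and 1340 WKM cells held exactly the number of markers the neutrophil gate needs or 1 fewer. For the HSPC gate, which held 451 cells, that number was 2052. The members and all gene lists were chosen with earlier results of these data known. All members were named, and of the other lists the genes past 2-fold in the sorted lyz contrast, at most 4 per list by counts, apart from a gene that is not reported here. Alternatives covered scaling, fold limit, count minimum, weighting of cells, doublets, depth, gates, and leaving out cells with hsp70 or cell cycle UMIs. No sequence or coordinate is given, since none of the files used holds them for this build.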

Additional observations from a re-analysis of the deposited data

Results flagged for a closer look

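Among the members with at least 100 UMIs and an interval clear of 0 in both libraries, the ratio between cells under 2% and over 10% lyz had opposite signs in the 2 libraries for aldoaa and eno3, a difference that was not tested. For aldoaa the log2 ratio was 0.0596 in the sorted library and -0.0925 in the WKM neutrophil gate, and for eno3 it was 0.0811 and -0.0963. All 4 values lie within 0.1 of 0 and below the median of all features (0.46 and 0.44). Without the UMIs of lyz and hemoglobin, the sorted ratios were -0.13 for aldoaa and -0.11 for eno3.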

How the results depend on the processing

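No paired analysis was possible because each condition is 1 library and cells could not be traced to a fish. Among single members, 1607 of the recomputed ratios and shares stayed within their spread, 387 moved beyond it and 4 turned direction. The 1607 include the settings that changed only the fold limit or the count minimum. These leave every ratio as it was, so the count overstates how many values held. Shares in parentheses are those of all features called the same way at the same setting. Without lyz and hemoglobin UMIs, 1 member was called higher in the WKM lyz contrast (3 before, 15.4%). In the monocyte or macrophage gate 1 was called higher as well (3 before, 10.2%). Median-of-ratios scaling gave 2 higher (14.0%) and 1 lower (16.7%) in the sorted lyz contrast and 1 higher (9.34%) in WKM. A limit of 1.5-fold gave 12 higher (44.4%) and 1 lower (15.7%) in the sorted lyz contrast and 7 higher (41.8%) in WKM. It gave 8 lower (24.9%) in the monocyte or macrophage gate and 17 lower (29.4%) in the T or NK cell gate. A minimum of 20 UMIs gave 7 members higher (27.9%) and 1 lower (12.2%) in the sorted lyz contrast and 1 lower (5.51%) by mmp9. The HSPC gate then had 2 higher (18.3%) and 21 lower (28.2%), and the erythroid gate 26 lower (60.7%). The monocyte or macrophage gate had 4 higher (16.1%) and 6 lower (16.9%), and the B cell gate 1 higher (24.6%). The mean over cells gave 2 members higher (2.92%) by mmp9 and 2 higher (15.5%) in the T or NK cell gate. Without cells holding a cell cycle UMI, 0 members were called higher in the erythroid gate (4.37%) and 0 in the monocyte or macrophage gate (11.2%). With mmp9 UMIs thinned to 1000 per cell, 1 member was called higher (3.42%). With all WKM cells grouped by lyz share, which adds other cell types to the low end, 8 members were called lower (5.27%). There hk2 (-0.28), gapdh (-1.14) and pygb (-0.19) turned direction. The mmp9 ratio of pfkfb3 turned to -0.0192 within cells under 2% lyz. With 1 marker more the HSPC gate kept 181 cells, and 14 of its member ratios moved beyond their spread. Of 23 members tested there, 18 were called lower (30.7%) and 0 higher (12.8%). The B cell gate at 800 features (47 cells) and the T or NK cell gate at 800 features (17 cells) or with 1 marker more (16 cells) were not run, since 50 cells were required. Depth limits the B and T or NK cell gates most, where 3 UMIs correspond to 8.48 and 18.7 CPM, and 0.161 CPM in the neutrophil gate.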
